A study of Homo sapiens with 5 samples.

Results

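Eph receptors and their ephrin ligands, Robo receptors and their Slit ligands, and the receptors and ligands of the netrin and RGM system were read in Rh41 cells after loss of the transcript H3F3A. The set was a fixed list of 41 gene symbols, each matched exactly to 1 row of the deposited gene tables, and it made up 41 of 43714 gene rows. It held 24 receptors and 17 ligands. A filter on low counts left 15859 genes for testing, and 34 of the 41 guidance genes were among them. Rh41 is an established human cell line of fusion-positive alveolar rhabdomyosarcoma, a cancer of the soft tissues whose cells resemble muscle precursors. The cells received scrambled siRNA (2 libraries, replicates 1 and 3) or siRNA against H3F3A (3 libraries, replicates 1 to 3) for 48 h, all with Lipofectamine RNAiMAX, and poly-A RNA was sequenced. H3F3A is 1 of the genes that encode the histone variant H3.3, and the study concerns H3.3 in this tumour. The labels name 1 siRNA treatment against H3F3A in 1 cell line. Whether each library came from its own culture is not stated, and the p-values cover only the spread among the 5 libraries, part or all of which may be technical.

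Eph receptors are receptor tyrosine kinases, and their ephrin ligands are held on the surface of a neighbouring cell, EphA receptors preferring the lipid-anchored ephrin-A and EphB receptors the transmembrane ephrin-B. Slits are secreted repellents read by Robo receptors, netrins are secreted laminin-related cues read by DCC, neogenin and UNC5 receptors, and the RGM proteins are lipid-anchored ligands of neogenin. Members of each system guide growing axons, and several also steer migrating muscle precursors and the fusion of myoblasts.

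Assigned counts ran from 28493573 to 30705963 per library. H3F3A, the targeted transcript, stood at 294 and 269 CPM (counts scaled to a common library size) in the scrambled libraries and at 9.38, 10.5 and 8.54 CPM after H3F3A siRNA, 29.7-fold lower (adjusted p = 9.04e-21). H3F3B encodes the same protein and stood at 839 and 803 CPM against 791 to 847. Across all genes tested, edgeR's quasi-likelihood test called 507 at an adjusted p under 0.05 (Benjamini-Hochberg over the whole table), or 3.2%, with 2.69% lower and 0.504% higher in the treated cells. Scrambled replicate 1 stood apart in its GC trend: its log2 CPM rose by 0.146 per 10 points of transcript GC content relative to the mean of the libraries, while the other 4 had slopes of -0.0589 to -0.00655. Each guidance gene or partner called below is therefore also given with the GC trend of every library removed and without that library. Of the 12 markers of alveolar rhabdomyosarcoma, led by FGFR4, MYOD1 and DES, 10 passed the filter, and their summed level ranged from 4379 to 5311 CPM in scrambled libraries and from 3804 to 3887 CPM after H3F3A siRNA. As counted, FGFR4 and CHRND were called lower and TFAP2B higher, while MYF5 had 0 or 1 count in every library. The part of this marker level in the results below was not tested, and in bulk RNA fewer cells of a kind and less RNA per cell cannot be told apart.

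Among the 34 guidance genes tested, 5 fell (NTN1, RGMA, EPHB1, EPHB3 and ROBO4) and 1 rose (EPHA3) after H3F3A siRNA, so 17.6% were called against 3.2% of all genes tested. The 5 that fell were 1.28-fold to 1.58-fold lower, and EPHA3 was 1.48-fold higher. The other 28 did not pass the test. The median log2 fold change of the 34 was -0.10, with 22 genes below 0 and 12 above, and that of all genes tested was 0.01. With the GC trend removed, the median of the 34 was -0.0165. The median GC content of their transcripts was 58.8%, against 48.9% over all genes tested that had a GC value. The libraries of the 2 groups did not overlap for 15 of the 34 (44.1%, 11 lower and 4 higher), against 33.1% of all genes tested (17.1% lower and 16% higher). The number called changed with the libraries and the GC correction used. When the GC trend was removed, 3 were called lower and 1 higher, against 1.72% of all genes (1.2% lower and 0.511% higher). Without scrambled replicate 1, NTN1 and RGMA alone were called, both lower, against 0.623% of all genes (0.501% lower and 0.122% higher). Without H3F3A siRNA replicate 1, edgeR called none of the 34 and 0.0958% of all genes (0.0575% lower and 0.0383% higher), with 12 of the 34 at an unadjusted p under 0.05. The log2 fold changes of the 6 genes were then -0.50 for NTN1, -0.48 for RGMA, -0.65 for EPHB1, -0.35 for EPHB3, -0.49 for ROBO4 and 0.50 for EPHA3.

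**Figure D1:**
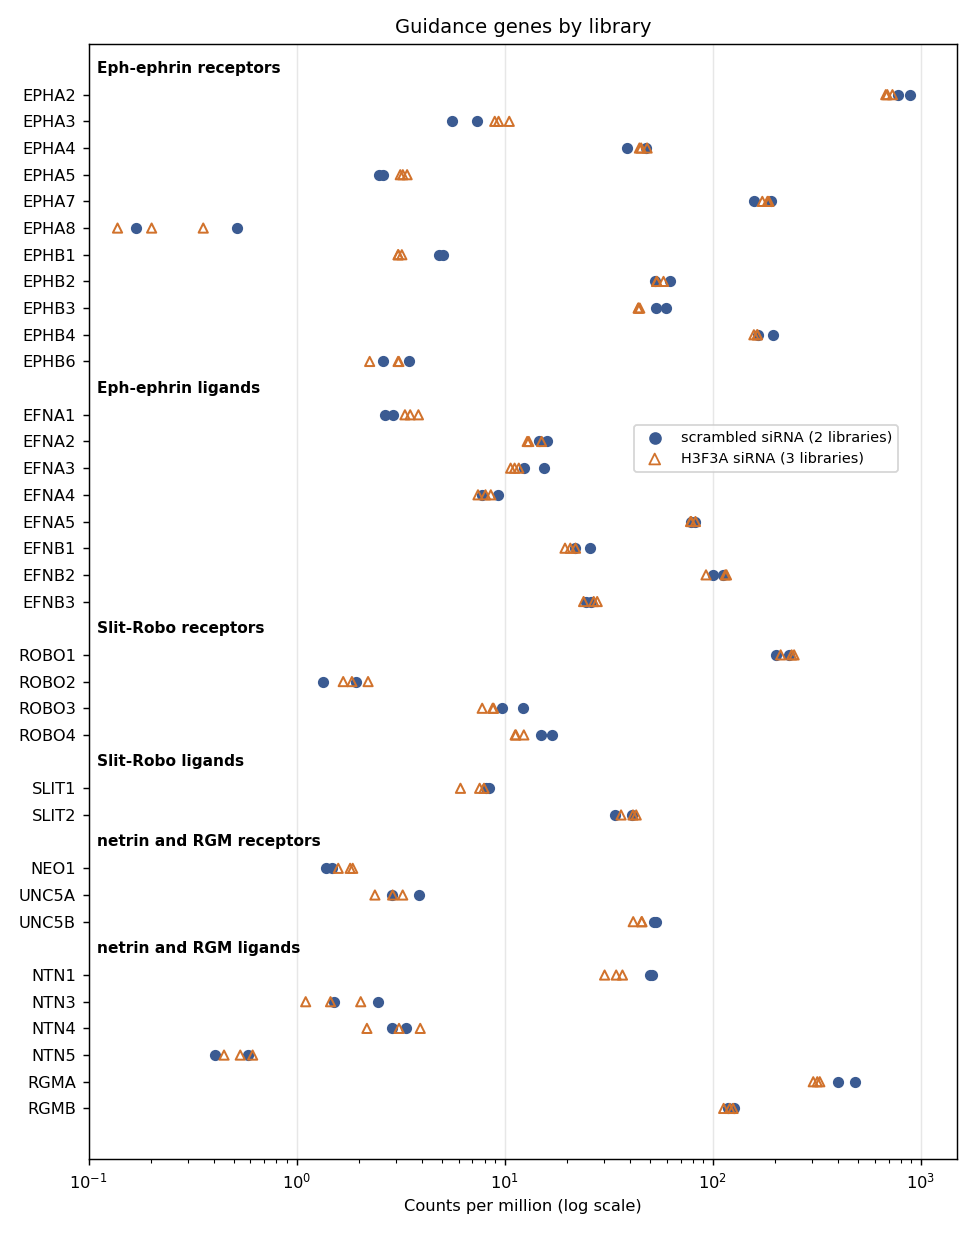
CPM of each of the 34 guidance genes tested on a log axis, grouped by system and role, with circles for the 2 scrambled siRNA libraries and open triangles for the 3 H3F3A siRNA libraries. Levels span from under 1 CPM (EPHA8, NTN5) to over 600 CPM (EPHA2), and the distance between groups is small beside that range.

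Sequence upstream of the transcript start is shown for the 4 called genes that have a single start in the promoter table, to set EPHA3, which rose, beside EPHB1, EPHB3 and ROBO4, which fell. Each run is the 250 bases before the start, 5′ to 3′ on the gene's strand, from RefSeq on GRCh38.p14, and capitals mark the GC box, searched as GGGCGG and its reverse complement CCGCCC. EPHA3 lies on the plus strand (chr3:89107371-89107620), EPHB1 on the plus strand (chr3:134795010-134795259), EPHB3 on the plus strand (chr3:184561535-184561784) and ROBO4 on the minus strand (chr11:124897866-124898115).
EPHA3: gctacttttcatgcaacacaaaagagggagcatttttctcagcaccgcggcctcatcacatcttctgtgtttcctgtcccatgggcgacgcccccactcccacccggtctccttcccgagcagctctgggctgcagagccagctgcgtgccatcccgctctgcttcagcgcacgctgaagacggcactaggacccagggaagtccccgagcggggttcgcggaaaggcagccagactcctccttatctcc
EPHB1: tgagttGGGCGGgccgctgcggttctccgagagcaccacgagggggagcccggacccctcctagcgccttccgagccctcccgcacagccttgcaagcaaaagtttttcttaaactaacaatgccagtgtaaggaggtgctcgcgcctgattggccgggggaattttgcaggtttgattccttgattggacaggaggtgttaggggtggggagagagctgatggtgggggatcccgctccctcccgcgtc
EPHB3: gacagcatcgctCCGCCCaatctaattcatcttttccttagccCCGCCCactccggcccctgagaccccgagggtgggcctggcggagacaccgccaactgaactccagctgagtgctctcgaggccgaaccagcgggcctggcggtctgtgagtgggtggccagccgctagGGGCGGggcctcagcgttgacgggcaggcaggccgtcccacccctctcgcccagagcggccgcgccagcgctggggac
ROBO4: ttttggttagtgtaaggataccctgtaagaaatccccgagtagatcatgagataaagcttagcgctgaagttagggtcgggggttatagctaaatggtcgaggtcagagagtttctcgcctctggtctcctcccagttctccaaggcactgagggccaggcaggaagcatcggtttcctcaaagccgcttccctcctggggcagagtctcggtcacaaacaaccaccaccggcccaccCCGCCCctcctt
The EPHA3 window held 0 GC boxes, the EPHB1 and ROBO4 windows 1 each and the EPHB3 window 3. Their GC content was 61.2% in EPHA3, 60.8% in EPHB1, 70% in EPHB3 and 54.8% in ROBO4, so the gene that rose did not have the lowest value of the 4. A GC box stood in 41 of the 52 windows of the 35 guidance genes with an entry (78.8%). It stood in 42.6% of all 35116 windows of that length and in 53.7% of the 22199 windows of protein-coding genes. The windows also differed in GC content, with medians of 67%, 58% and 62% in that order. Whether the shares follow from GC content was not tested. Windows of 1 gene can overlap, as those of EPHB2 do. RGMA had 5 windows with 0 to 7 boxes and is not shown, and NTN1 is named only. A match is a description of letters, and binding of a factor was not measured.

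Among the Eph receptors, EPHB1 and EPHB3 fell and EPHA3 rose, and 8 of the 11 tested were not called. EPHB1, a receptor for ephrin-B ligands, stood at 4.83 and 5.05 CPM in the scrambled libraries and at 3.08, 3.20 and 3.07 CPM after H3F3A siRNA. The groups did not overlap (4.94 ± 0.154 CPM, SD, n = 2, against 3.12 ± 0.0733 CPM, SD, n = 3). These SDs rest on few libraries and low counts, 141 and 150 against 92, 93 and 95. EPHB1 was 1.58-fold lower (log2 fold change -0.66, SE 0.149, edgeR adjusted p = 0.016). Its value was nearly the same with the GC trend removed (-0.64, adjusted p = 0.0255) and without scrambled replicate 1 (-0.70, adjusted p = 0.0914), and only the latter lost the call. DESeq2 gave EPHB1 a log2 fold change of -0.67 and no adjusted p, since its filter on mean counts left the gene out.

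EPHB3, another ephrin-B receptor, stood at 59.7 and 53.2 CPM in the scrambled libraries and at 44.0, 44.6 and 43.8 CPM after H3F3A siRNA. Every treated library was below both controls, and the treated libraries lay within 1 CPM of each other. EPHB3 was 1.28-fold lower (log2 fold change -0.36, SE 0.0794, edgeR adjusted p = 0.0157). Removing the GC trend left -0.17 (adjusted p = 0.158), and leaving out scrambled replicate 1 left -0.27 (adjusted p = 0.134), so the call ended under both. The EPHB3 transcript is 62.2% GC and that of EPHB1 52.4%.

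EPHA3, a receptor for ephrin-A ligands, stood at 5.59 and 7.38 CPM in the scrambled libraries and at 10.5, 8.96 and 9.35 CPM after H3F3A siRNA. All 3 treated libraries were above both controls, with scrambled replicate 1 the lowest of the 5. The rise was 1.48-fold (log2 fold change 0.57, SE 0.132, edgeR adjusted p = 0.0194). It was 0.49 on the log2 scale with the GC trend removed (adjusted p = 0.0445) and 0.38 without scrambled replicate 1 (adjusted p = 0.332). At 40.6% GC, EPHA3 was among the most AT-rich of the guidance transcripts.

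EPHA2 was the most abundant guidance gene in every library, per length as well as in CPM. It stood at 883 and 774 CPM in the scrambled libraries and at 690, 679 and 731 CPM after H3F3A siRNA. The treated libraries were all below the controls, and edgeR did not call the difference (log2 fold change -0.24, SE 0.0791, adjusted p = 0.0957). DESeq2 called it (log2 fold change -0.25, adjusted p = 0.0332), and with the GC trend removed it was -0.10 (adjusted p = 0.487).

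The other EphB receptors had values below 0 that were not called. EPHB4, which pairs with ephrin-B2 in vessel development, stood at 195 and 165 CPM against 158, 163 and 164 CPM (log2 fold change -0.16, adjusted p = 0.331). EPHB2 overlapped between groups, at 62.1 and 52.9 CPM against 58.0, 53.9 and 53.7 CPM. EPHB6, whose kinase domain is inactive, stood at 2.61 and 3.47 CPM against 2.24, 3.10 and 3.07 CPM, and its values are uncertain. A numbered copy row of EPHB6 held 101 to 129 counts per library, more than the 67 to 103 of the gene's own row, and the sum of both rows was 6.45 and 7.71 CPM against 5.63, 7.55 and 7.05 CPM. All 5 EphB receptors thus had log2 fold changes below 0 (median -0.16), but with the GC trend removed EPHB2, EPHB4 and EPHB6 were above 0 and the median was 0.02. Without scrambled replicate 1, EPHB2 was above 0 as well.

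The EphA receptors did not share a direction. Of the 6 tested, 2 were below 0 and 4 above. EPHA7 stood at 158 and 191 CPM against 173, 186 and 183 CPM, and EPHA4, which guides muscle precursors into the limb, at 38.9 and 47.9 CPM against 44.4, 45.3 and 48.4 CPM. In both genes scrambled replicate 1 was the lowest library and scrambled replicate 3 lay within or next to the treated ones. EPHA5 was higher in every treated library, at 3.15, 3.24 and 3.40 CPM against 2.61 and 2.49 CPM, and was not called (log2 fold change 0.36, adjusted p = 0.298). Its antisense neighbour EPHA5-AS1 had 9 to 17 counts beside 74 to 105 of EPHA5, and without strand the reads of the pair cannot be told apart. EPHA8 stayed under 1 CPM. EPHA6 had 0.201 to 0.337 CPM and did not pass the filter, and EPHA1 and EPHA10 had 0 counts in every library, which allows at most 3 counts or 0.097 to 0.103 CPM. EPHA1 also has a numbered copy row, which held 0 counts.

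No ephrin was called among the 8 tested by edgeR (2 at an unadjusted p under 0.05), and their median log2 fold change was -0.05. DESeq2 called 0 ephrins, with no adjusted p for 1 of the 8. EFNB2, the transmembrane partner of EPHB4, was the most abundant in CPM, at 99.9 and 112 CPM against 92.8, 115 and 116 CPM. Its libraries overlapped, and the 95% interval of the log2 fold change ran from -0.16 to 0.22. EFNA5, a ligand of EPHA3 and EPHA4, stood at 78.2 and 82.4 CPM against 82.6, 78.7 and 78.2 CPM, with an interval of -0.16 to 0.15. Neither interval reaches the size of the EPHA3 or EPHB1 change.

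EFNA3 and EFNA1, both lipid-anchored ligands, were the 2 ephrins at an unadjusted p under 0.05, and they differed in sign. EFNA3 stood at 15.5 and 12.4 CPM against 11.7, 10.7 and 11.2 CPM (log2 fold change -0.32, adjusted p = 0.124). EFNA1 stood at 2.67 and 2.90 CPM against 3.32, 3.51 and 3.85 CPM (log2 fold change 0.35, adjusted p = 0.286). In both genes the groups did not overlap. EFNA4, EFNA3 and EFNA1 are neighbouring protein-coding genes in RefSeq, and EFNA4, next to EFNA3, stood at 9.29 and 7.78 CPM against 8.58, 7.44 and 8.09 CPM. The groups overlapped in the other 3 ephrins. EFNA2 stood at 15.9 and 14.5 CPM against 12.8, 13.1 and 15 CPM, EFNB1 at 25.6 and 21.7 CPM against 19.5, 20.7 and 21.9 CPM, and EFNB3 at 26 and 24.5 CPM against 27.8, 23.9 and 26.8 CPM.

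The receptors of the Eph system were read more than their ligands. Scaled by the length of the longest principal transcript, the receptors' CPM per kilobase added up to 332 and 300 with scrambled siRNA and to 273, 273 and 286 in the treated libraries. Ephrins summed to 84.7 and 82.0 against 77.2, 78.9 and 83.4. The ratio of receptor to ligand was 3.92 and 3.67 with scrambled siRNA and 3.54, 3.46 and 3.43 with H3F3A siRNA, lower in every treated library. EPHA2 alone made up 48.6% to 53.4% of the summed level of the system per length. It stood at 223 and 195 CPM per kilobase with scrambled siRNA and at 174, 171 and 184 with H3F3A siRNA. EPHA2 was not called by edgeR, and the sums keep the GC trend. Whether the ratio differed without EPHA2 was not tested. After EPHA2 (209 CPM per kilobase in scrambled libraries), the order per length among receptors was EPHB4 (41.6), EPHA7 (26.5), EPHB2 (15.6) and EPHB3 (13.3). Among ephrins it was EFNB2 (21.2), EFNA2 (16.1) and EFNA5 (15.1). With the median transcript length in its place, EFNA5 (16.3) came before EFNA2 (16.1), and EPHB4 and EPHA7 came closer, at 47.6 and 41.2.

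**Figure D2:**
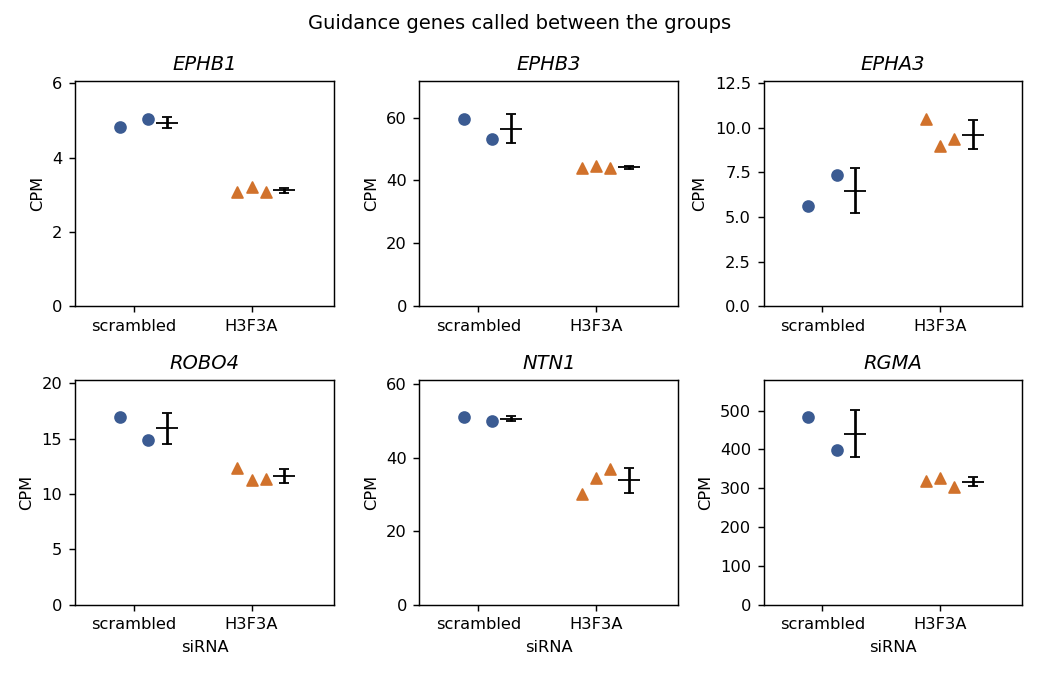
CPM of the 6 called guidance genes in each library, on linear axes from 0, with circles for scrambled siRNA (n = 2) and triangles for H3F3A siRNA (n = 3), and beside them the mean with SD. In each of the 6 the groups do not overlap, and EPHA3 is the gene that is higher after H3F3A siRNA. The 6 were picked by the test on these same libraries, and 33.1% of all genes tested do not overlap.

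Among the Robo receptors, ROBO4 fell and the other 3 were not called. ROBO4, a receptor known from vascular endothelium, stood at 16.9 and 14.9 CPM in the scrambled libraries and at 12.4, 11.2 and 11.3 CPM after H3F3A siRNA. The treated libraries were all below the controls, with means of 15.9 ± 1.43 CPM (SD, n = 2) and 11.6 ± 0.627 CPM (SD, n = 3). ROBO4 was 1.37-fold lower (log2 fold change -0.45, SE 0.103, edgeR adjusted p = 0.0168). Removing the GC trend made it -0.32 (adjusted p = 0.0705), and without scrambled replicate 1 it was -0.36 (adjusted p = 0.203), so the call ended under both. Of 10 endothelial markers, led by TIE1, CLDN5 and ESAM, 6 were under 1 CPM, none of the 5 tested was called by edgeR, and their summed level ranged from 9.84 to 10.3 CPM in scrambled libraries and from 9.30 to 9.65 CPM after H3F3A siRNA. Of these 3, ESAM was higher in every treated library, at 1.98, 1.76 and 1.62 CPM against 1.54 and 1.52 CPM. CLDN5 was lower in each, at 2.08, 2.03 and 2.20 CPM against 2.88 and 2.36 CPM. The groups overlapped in TIE1. KDR, chosen after its values were seen, had 0 counts in 4 libraries and 1 in the fifth.

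ROBO3, a receptor that lets axons cross the midline, is the neighbour of ROBO4 in RefSeq. It stood at 12.2 and 9.70 CPM against 8.84, 8.75 and 7.80 CPM. All treated libraries were below the controls, but the difference did not pass the test (log2 fold change -0.37, adjusted p = 0.0925), and with the GC trend removed it was -0.17. ROBO1, the main Slit receptor here, stood at 202 and 232 CPM against 212, 246 and 239 CPM, with overlapping groups and a 95% interval of -0.07 to 0.27 for the log2 fold change. ROBO2, its neighbour, stood at 1.34 and 1.92 CPM against 1.68, 2.21 and 1.84 CPM.

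Neither Slit tested was called (edgeR, with 0 at an unadjusted p under 0.05 and 0 called by DESeq2). SLIT2 stood at 34.0 and 40.9 CPM against 36.3, 41.4 and 42.9 CPM. SLIT1 stood at 8.37 and 8.15 CPM against 6.13, 7.58 and 7.96 CPM, lower in each treated library with a log2 fold change of -0.19 (adjusted p = 0.473). SLIT3 had 0, 0, 0, 1 and 1 counts and did not pass the filter. Rh41 thus held transcripts of both Slits and Robos. Per length, Robo receptors summed to 42.6 and 46.9 CPM per kilobase with scrambled siRNA and 42.6, 48.5 and 47.1 with H3F3A siRNA, and Slits to 6.38 and 7.42 against 6.45, 7.44 and 7.72. The ratio of receptor to ligand was 6.10 to 6.67 over the 5 libraries, overlapping between groups. ROBO1 made up 73.8% to 78.6% of the summed level of the system per length.

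In the netrin and RGM system both called genes were ligands, NTN1 and RGMA, and both fell. NTN1 encodes netrin-1, the secreted ligand of DCC, neogenin and the UNC5 receptors. It stood at 51.0 and 50.0 CPM in the scrambled libraries and at 30.2, 34.4 and 36.8 CPM after H3F3A siRNA. The highest treated library was well below the lowest control, with means of 50.5 ± 0.664 CPM (SD, n = 2) and 33.8 ± 3.33 CPM (SD, n = 3). NTN1 was 1.49-fold lower (log2 fold change -0.58, SE 0.0864, edgeR adjusted p = 0.000968), and no other guidance gene had a smaller p. It was called in 16 of 17 alternative analyses. Its log2 fold change was -0.40 with the GC trend removed (adjusted p = 0.0195), -0.57 without scrambled replicate 1 (adjusted p = 0.00282), and -0.50 without H3F3A siRNA replicate 1, where the call was lost (adjusted p = 0.0577).

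RGMA encodes repulsive guidance molecule A, a ligand of neogenin that also acts as a co-receptor for bone morphogenetic proteins. It stood at 483 and 398 CPM in the scrambled libraries and at 318, 327 and 304 CPM after H3F3A siRNA. The treated libraries lay close together and below both controls, which differed from each other by more than the treated ones did. RGMA was 1.39-fold lower (log2 fold change -0.48, SE 0.0825, edgeR adjusted p = 0.00277), and -0.38 with the GC trend removed (adjusted p = 0.00228). Without scrambled replicate 1 it was -0.34 (adjusted p = 0.0276), without H3F3A siRNA replicate 1 it was -0.48 and not called (adjusted p = 0.084), and 15 of the 17 alternatives called it.

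RGMB, the related ligand, was not called. It stood at 118 and 126 CPM against 113, 125 and 121 CPM, with overlapping groups and a 95% interval of -0.19 to 0.13 for the log2 fold change. That of RGMA ran from -0.65 to -0.31, and the difference between the genes was not tested. The antisense gene RGMB-AS1 had 55 to 90 counts beside 3368 to 3748 of RGMB. The other netrins were scarce. NTN4 stood at 2.88 and 3.37 CPM against 2.18, 3.93 and 3.11 CPM, NTN3 at 2.47 and 1.52 CPM against 1.11, 2.03 and 1.46 CPM, and NTN5 under 1 CPM.

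None of the 3 netrin and RGM receptors tested was called by edgeR (1 at an unadjusted p under 0.05). DESeq2 called 0, with no adjusted p for 2 of these 3 receptors. UNC5B, a netrin receptor of the repulsive and dependence type, was the main one. It stood at 53.4 and 52.4 CPM in scrambled libraries and at 41.5, 45.7 and 45.5 CPM after H3F3A siRNA, lower in each treated library without passing the test (log2 fold change -0.26, SE 0.0793, adjusted p = 0.0785). With the GC trend removed it was -0.12 (adjusted p = 0.499). UNC5A stood at 3.87 and 2.86 CPM against 2.38, 2.89 and 3.24 CPM. NEO1, which encodes neogenin, the receptor that both netrins and RGMs bind, stood at 1.47 and 1.38 CPM against 1.81, 1.86 and 1.59 CPM, higher in each treated library with a log2 fold change of 0.29 (adjusted p = 0.546). DCC had 0, 0, 2, 3 and 0 counts, UNC5C 1, 1, 4, 0 and 1, and UNC5D 1, 0, 0, 0 and 0. At this depth these 3 receptors were not measured well enough for a comparison.

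Ligands outweighed receptors in this system, the reverse of the other 2. Per length, receptors summed to 9.04 and 8.60 CPM per kilobase in scrambled libraries and to 6.95, 7.70 and 7.72 after H3F3A siRNA, and ligands to 79.3 and 73.0 against 59.2, 64.3 and 61.3. Both sums were lower in every treated library. The ratio of ligand to receptor was 8.78 and 8.49 against 8.51, 8.35 and 7.94, with overlapping groups. The sums keep the GC trend. UNC5B, which was not called, made up most of the receptor sum, at 7.80 and 7.66 against 6.06, 6.68 and 6.65 CPM per kilobase. RGMA made up 38.8% to 48.2% of the summed level of the system per length. Both this share and the ratio depend on the RGMA transcript counted: its longest principal transcript has 11350 nt and the median of its transcripts 3038 nt, and with median lengths the ratio was 18.2 to 22.1 and the share 65.5% to 73.9%. The Slit-Robo ratio was 3.88 to 4.28 with median lengths, and in each system the larger side stayed the larger.

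**Figure D3:**
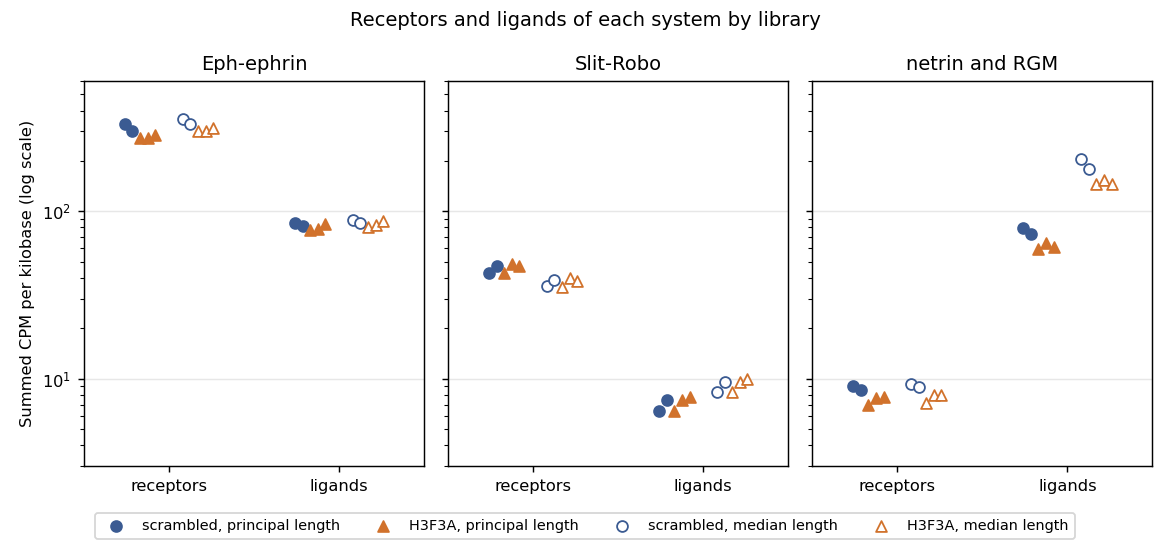
Summed CPM per kilobase of receptors and of ligands in each system on a log axis, 1 point per library, circles for scrambled siRNA (2 libraries) and triangles for H3F3A siRNA (3 libraries), filled with principal transcript lengths and open with median lengths. Receptors are above ligands in the Eph-ephrin and Slit-Robo systems and below them in the netrin and RGM system under both lengths.

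Set side by side, 3 of 18 receptors tested fell and 1 rose (22.2% called), with a median log2 fold change of -0.14. Of 16 ligands tested, 2 fell and none rose by edgeR (12.5% called, 4 at an unadjusted p under 0.05), with a median of -0.06. Over all genes tested, 3.2% were called. DESeq2 also called 2 ligands lower and none higher, with no adjusted p for 4 of the 16. By system, the medians were -0.11 for Eph receptors and -0.05 for ephrins, -0.14 for Robos and -0.05 for Slits, and -0.25 for netrin and RGM receptors and -0.21 for their ligands. With the GC trend removed, the medians of all 6 groups lay between -0.05 and 0.03. Of the receptors, 1 was then called lower and 1 higher (median 0.0027). Of the ligands, 2 were called lower and none higher (median -0.030), against 1.72% of all genes called. Members are not replicates of a condition, so these medians carry no test.

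**Figure D4:**
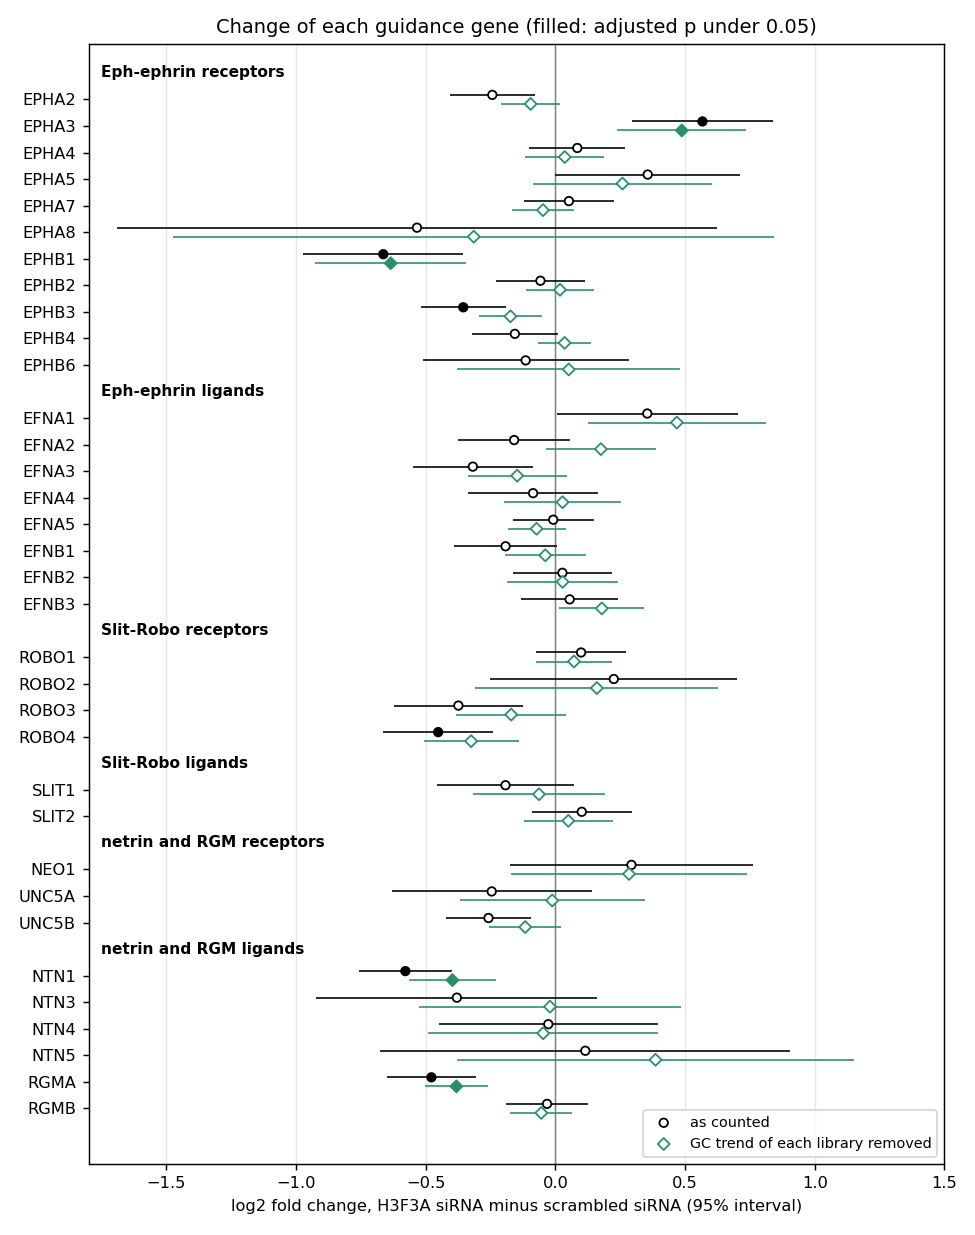
Log2 fold change, H3F3A siRNA minus scrambled siRNA, with its 95% interval for each guidance gene tested, as counted (circles) and with the GC trend of each library removed (diamonds), filled where the adjusted p was under 0.05. NTN1, RGMA, EPHB1 and EPHA3 are filled under both, EPHB3 and ROBO4 as counted only.

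The size of the change moved with the GC content of the transcript. Over the 34 guidance genes, which share the same 5 libraries, Spearman's rho between log2 fold change and GC content was -0.62, and over the 13889 genes tested with a GC value it was -0.53. For the guidance genes it was -0.24 after the GC trend of each library was removed. EPHA3 lies at the AT-rich end of this relation, and NTN1 and EPHB3 (both over 62% GC) toward the GC-rich end. EPHB1 lies below the other genes near its GC content. The values without scrambled replicate 1 are those given with each guidance gene called.

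**Figure D5:**
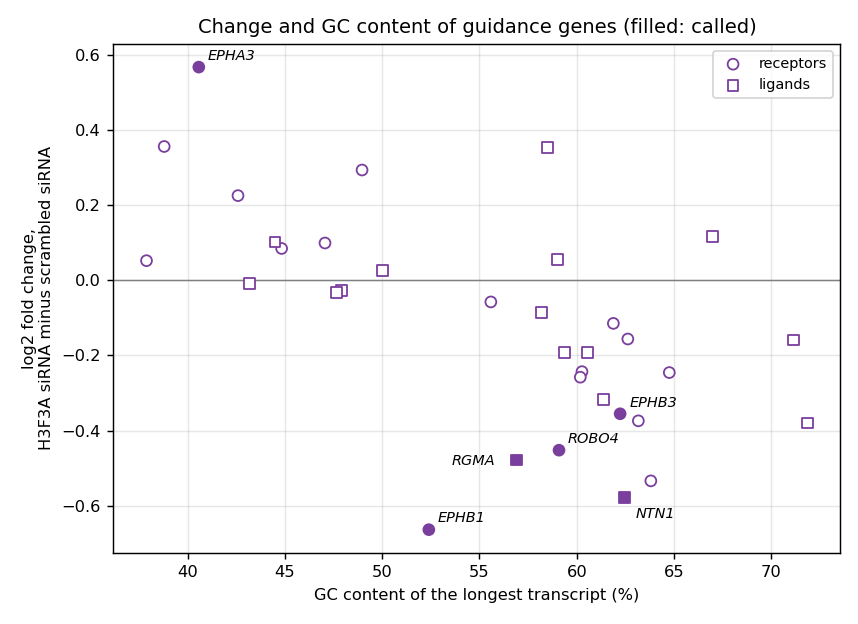
Log2 fold change, H3F3A siRNA minus scrambled siRNA, against the GC content (%) of the longest transcript for the 34 guidance genes tested, circles for receptors and squares for ligands, filled for the 6 that were called. Genes under 50% GC lie mostly above 0 and genes over 55% mostly below, and EPHB1 at 52.4% has the lowest value.

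A further 97 genes that act with these receptors and ligands were followed, of which 91 passed the filter. Of these, 7 fell and 2 rose (9.89% called, against 3.2% of all genes tested), and their median log2 fold change was -0.01. With the GC trend removed, 4 were called lower and 1 higher, against 1.72% of all genes tested. The list was written with earlier results of these data known, so its share called is a description only. Among the 36 tested genes of Eph and ephrin signalling, none fell and 1 rose by edgeR (2.78% called, 7 at an unadjusted p under 0.05). DESeq2 gave the same counts, with no adjusted p for 4 of the 36. PIK3R1, a regulatory subunit of phosphoinositide 3-kinase, rose from 25.8 and 30.2 CPM to 36.2, 34.3 and 35.5 CPM (log2 fold change 0.33, adjusted p = 0.0391). Its log2 fold change was 0.25 with the GC trend removed and 0.22 without scrambled replicate 1, and the call ended under both (adjusted p = 0.0664 and 0.356).

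Of 20 tested genes of Slit and Robo signalling, 3 fell and 1 rose (20% called, against 3.2% of all genes tested). The glypican GPC1, a heparan sulfate proteoglycan that binds Slits, fell from 528 and 414 CPM to 347, 365 and 349 CPM (log2 fold change -0.41, adjusted p = 0.0105). DAG1, dystroglycan, a laminin receptor of muscle that also binds Slits, fell from 433 and 425 CPM to 324, 343 and 344 CPM (-0.35, adjusted p = 0.0109). The actin regulator VASP fell from 183 and 158 CPM to 130, 132 and 135 CPM (-0.37, adjusted p = 0.0101). FLRT3, a membrane protein that binds Robo1 and UNC5 receptors, had the greatest change of the partners called and rose from 2.85 and 3.50 CPM to 4.82, 5.51 and 6.02 CPM (0.78, adjusted p = 0.00844). The treated libraries were outside the control range in all 4, and in 33.1% of all genes tested. The 4 were called from these same libraries, so this adds no support. Removing the GC trend gave -0.15 for GPC1, which was then not called (adjusted p = 0.183), -0.28 for DAG1, -0.24 for VASP and 0.69 for FLRT3. Leaving out scrambled replicate 1 gave -0.23 for GPC1, -0.34 for DAG1, -0.27 for VASP and 0.64 for FLRT3, and DAG1 alone of the 4 was then called (adjusted p = 0.0276).

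Of 35 tested genes of netrin, neogenin and RGM signalling, 4 fell and none rose by edgeR (9 at an unadjusted p under 0.05). The share called was 11.4%, against 3.2% of all genes tested. DESeq2 also called 4 lower and none higher, with no adjusted p for 5 of the 35. DRAXIN, a secreted netrin antagonist that binds netrin-1 and DCC, fell from 124 and 114 CPM to 90.4, 92.8 and 92.8 CPM (log2 fold change -0.37, adjusted p = 0.00815). TRIM9, a ubiquitin ligase that binds DCC, fell from 15.1 and 13.9 CPM to 9.35, 10.1 and 10.2 CPM (-0.55, adjusted p = 0.00488). LIMK1, the kinase of cofilin, fell from 270 and 222 CPM to 199, 201 and 192 CPM (-0.32, adjusted p = 0.0364), and TUBB3, a tubulin of neurons, from 129 and 102 CPM to 90.8, 87.0 and 94.1 CPM (-0.35, adjusted p = 0.0288). Of 10 markers of neurons and glia, 8 were under 1 CPM, STMN2 had 0 counts in every library, and none of the 4 tested was called by edgeR. The summed level of the 10 ranged from 6.07 to 8.39 CPM in scrambled libraries and from 7.31 to 8.61 CPM after H3F3A siRNA. Removing the GC trend gave -0.33 for DRAXIN, -0.53 for TRIM9, -0.16 for LIMK1 and -0.18 for TUBB3, and the last pair was then not called (adjusted p = 0.162 and 0.131). Leaving out scrambled replicate 1 gave -0.31 for DRAXIN, -0.49 for TRIM9, -0.17 for LIMK1 and -0.18 for TUBB3, and DRAXIN alone of the 4 was then called (adjusted p = 0.0341).

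Of the 9 partners called, edgeR called none without H3F3A siRNA replicate 1, with 14 of the 91 tested at an unadjusted p under 0.05. Their log2 fold changes were then 0.32 for PIK3R1, -0.36 for VASP, -0.40 for GPC1, -0.32 for DAG1, 0.86 for FLRT3, -0.35 for DRAXIN, -0.51 for TRIM9, -0.32 for LIMK1 and -0.35 for TUBB3.

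Of 10 fibroblast markers, led by COL3A1, PDGFRB and COL1A1, 6 were under 1 CPM. Their summed level ranged from 1223 to 1344 CPM in scrambled libraries and from 1242 to 1301 CPM after H3F3A siRNA, nearly all from COL3A1. PDGFRB stood at 44.5 and 44.3 CPM against 33.5, 36.5 and 34.0 CPM, and COL1A1 at 44.4 and 35.2 CPM against 31.5, 33.0 and 28.7 CPM, and both were called lower as counted. Their part in the guidance genes' values was not tested. The 10 epithelial markers summed to between 10.4 and 12.1 CPM with scrambled siRNA and between 9.99 and 10.8 CPM with H3F3A siRNA, and the 10 immune markers to between 5.93 and 6.82 CPM and between 6.06 and 6.73 CPM.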

How the data were processed

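Unstranded counts of reads per gene, as deposited by the authors in tables laid out like STAR output, were used. Per the submitters' processing notes, CASAVA, bcl2fastq, STAR 2.5, HTSeq 0.6.1, DESeq2 and the hg19 build were involved; which tool made which file is not given in the sources used here. Per the labels' protocols, mRNA was captured on poly-T beads and made into libraries with a NEBNext Ultra kit, which does not mark strand, and 49.9% to 50.1% of stranded counts fell in the first strand column. Summary lines hold no gene and stayed out of library sizes and tests: 4.84% to 5.48% of reads were unmapped, 6.28% to 6.42% mapped to several places, 9.17% to 10.2% had no feature and 4.45% to 4.56% were ambiguous. Of the gene rows, 4791 are numbered copies of 2420 genes, which points to a reference other than plain hg19, so gene coordinates are not given and values of genes with copies are uncertain.

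Genes were kept by filterByExpr (minimum count 10, minimum total 15), scaled by TMM and tested with edgeR 4.0.16 in R 4.3.3 (glmQLFit with robust=TRUE), without covariates over all 5 libraries, and called at a Benjamini-Hochberg adjusted p under 0.05 over all genes tested. The biological coefficient of variation was 6.53%. The GC trend was a lowess curve (span 0.3) of centred log2 CPM over transcript GC content in each library, entered as an offset; 87.6% of genes tested had a GC value. Lengths and GC content came from GENCODE v29. DESeq2 1.42.0 was an alternative. On simulated data over 15619 genes the test recovered 96% of changes of 1 log2 and 55% of changes of 0.4 log2. Of its calls, 3.21% were unchanged genes, and it made 0 calls with no change. The simulated libraries had no GC trend and none that stood apart, so these rates may not hold for the real libraries. Limits for a count of 0 take 3 counts and cover counting error only.

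The guidance genes, partners and marker lists were chosen with earlier results of these data known. Every guidance gene was named, with values per library from a mean of 1 CPM; of the partners every called gene, and of each marker list at most 3 genes by mean CPM, besides called markers, MYF5, STMN2 and KDR, which were named after their values were seen. Samples were grouped by title. Alternatives covered scaling, tool, filter, dispersion, gene copies, GC content, the replicate number as a block and each library left out.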

Additional observations from a re-analysis of the deposited data

How the results depend on the processing

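Precision is limited by the 2 control libraries. Their counts differed from each other with a chi-square per degree of freedom of 13.7. Scrambled replicate 3 differed less from H3F3A siRNA replicates 1 to 3 (12.9, 6.04 and 7.93). Scrambled replicate 1 differed more from them (25.2, 22.8 and 24). Leaving out 1 control leaves a lone library that is assumed to vary like the treated ones. Genes under about 1 CPM had standard errors too wide for a comparison. Over 17 alternatives, the 6 called guidance genes gave 101 values, of which 80 kept direction and call, 21 lost the call and 0 changed sign. The 9 called partners gave 153 values, of which 118 kept both and 35 lost the call. Over all guidance genes tested, 484 of 564 values kept direction and side of the threshold, 8 became calls and 51, of 18 genes not called, changed sign. The cause of these changes was not tested.

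Leaving out each library in turn, guidance genes called lower ranged from 0 to 11 and higher from 0 to 1, partners called lower from 0 to 13 and higher from 0 to 10, and all genes called lower from 9 to 1737 and higher from 6 to 744. The lowest counts came without H3F3A siRNA replicate 1, and those without scrambled replicate 3 were the highest, with EPHA2, EPHB4, EFNA3, EFNB1, ROBO3 and UNC5B called lower as well. The median log2 fold change ranged over these fits from -0.28 to -0.0152 for netrin and RGM receptors and -0.37 to -0.0904 for netrin and RGM ligands. Log2 fold changes of genes that changed sign in 1 or more of these fits ranged from -0.0602 to 0.24 for EPHA4, -0.0844 to 0.20 for EPHA7, -1.13 to 0.46 for EPHA8, -0.17 to 0.0592 for EPHB2, -0.21 to 0.0442 for EFNA4, -0.0564 to 0.13 for EFNB2, -0.0135 to 0.51 for ROBO2, -0.0273 to 0.24 for SLIT2, -0.69 to 0.0084 for NTN3, -0.31 to 0.11 for EPHB6, -0.0481 to 0.0288 for EFNA5, -0.24 to 0.17 for NTN4, -0.13 to 0.40 for NTN5 and -0.081 to 0.0144 for RGMB.

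After removal of the GC trend, 3 guidance genes and 4 partners were called lower, 1 partner higher, and 191 of all genes lower. The medians were 0.0178 for Eph receptors, 0.0277 for ephrins, -0.0494 for Robos, -0.0123 for netrin and RGM receptors and -0.0508 for netrin and RGM ligands, and genes of opposite sign were EPHA7 (-0.0478), EPHB2 (0.0178), EPHB4 (0.0355), EPHB6 (0.0515), EFNA2 (0.18) and EFNA4 (0.0275). After removal of the GC trend and of scrambled replicate 1 together, 1 guidance gene (NTN1) was called lower and 0 higher, 2 partners lower and 0 higher, and 63 and 20 of all genes. The medians were 0.0172 for ephrins, -0.0792 for Robos and 0.0747 for netrin and RGM receptors, and genes of opposite sign were EPHA4 (-0.0788), EPHA7 (-0.11), EPHA8 (0.54), EPHB2 (0.0768), EPHB4 (0.0382), EFNA2 (0.0553), EFNA4 (0.0775), EFNB2 (-0.0591), ROBO1 (-0.0094), ROBO2 (-0.0335), SLIT2 (-0.0466), NTN3 (0.16) and UNC5A (0.0747).

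Without a filter on low counts, 153 of all genes were called higher. A filter of 1 CPM in 2 libraries put the median of netrin and RGM ligands at -0.37 and EFNA5 at 0.0034, and upper-quartile scaling put EFNA5 at 0.015. With median transcript lengths, chosen after seeing the data, the receptor to ligand ratio in scrambled libraries was 4.17 for Slit-Robo and 0.0472 for netrin and RGM. Summing numbered copies, also chosen after seeing the data, left the same 6 guidance genes called.

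The replicate number was also entered as a block. The labels do not say that a number pairs samples. Deviations of same-numbered libraries from their group means correlated at 0.178 and 0.0705 over 13137 genes. With 2 scrambled libraries the deviations of 1 mirror those of the other, so these values cannot decide whether a number pairs libraries. With the block the same 6 guidance genes were called, 476 of all genes were lower and 98 higher, the median was -0.37 for netrin and RGM ligands, and EFNA5 (0.0016) and EFNB2 (-0.0253) had the opposite sign. With the block and the GC trend removed together, 5 guidance genes were lower and 2 higher (EFNB3 in addition, adjusted p = 0.0161), 15 partners were lower and 6 higher, and 777 of all genes lower and 499 higher. The medians under this replicate block were -0.0295 for Eph receptors, 0.0279 for ephrins, -0.0802 for Robos and -0.0254 for netrin and RGM receptors, and genes of opposite sign were EPHA7 (-0.0694), EPHB2 (0.0327), EPHB4 (0.0323), EFNA2 (0.22), EFNA4 (0.0792) and EFNB2 (-0.0234).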
